A study of Danio rerio with 12 samples.

Results

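Sox3 peaks of *tp63*−/− embryos at 36 hours post-fertilization (hpf) were set against the sites that p63 holds in wild-type (WT) embryos of the same stage. The comparison used 4 of the 12 ChIPmentation libraries of the series, 2 of p63 in WT embryos and 2 of Sox3 in *tp63*−/− embryos. ChIPmentation is chromatin immunoprecipitation in which a transposase tags the captured DNA while it is still on the beads. A site was a merged region of at least 1 bp of overlap with a peak in both replicates, which gave 8120 p63 binding sites (BSs) out of 18360 merged p63 regions and 48746 mutant Sox3 sites out of 90936 merged Sox3 regions. All chromatin came from whole embryos of AB and Tübingen strains, so a shared site does not place both factors in the same cells.

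The *tp63*−/− line carries a small CRISPR/Cas9 deletion with a premature stop codon that affects all *tp63* isoforms, and 36 hpf is the earliest stage at which the study could tell mutants by their phenotype. Mutant chromatin was prepared from fewer embryos than WT chromatin. The 2 Sox3 libraries of WT embryos at 36 hpf served as the reference for genotype. p63 was profiled in WT embryos only, so p63 positions below are those of embryos that have p63.

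p63 is a transcription factor of the p53 family that is required for the surface ectoderm and for the stratified epidermis formed from it. Sox3 is an HMG-box factor of the SoxB1 group, expressed in neural progenitors, where it keeps cells in the progenitor state. Both act largely through enhancers, and their expression domains meet at the border of the neural plate. The question was where Sox3 lies, in embryos without p63, with respect to the regions that p63 occupies at that stage.

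There were 16993 and 9538 p63 peaks at this stage. The depth behind them was 5.63 M and at most 1.04 M tags (M, megatags left for the peak call). Sox3 had 81578 and 59786 peaks in *tp63*−/− embryos (14.1 and 12.9 M tags), against 51504 and 29082 peaks in WT embryos (7.97 and 5.75 M tags). Genotype, these tag numbers and the number of embryos therefore went together and cannot be told apart from the lists as deposited. The uniquely mapped reads that the study gives for the Sox3 libraries overlap between the genotypes, so the libraries do not stand in the same order by mapped reads as by recovered tags. No control library is stated, and a missing peak shows only that no region passed the caller's threshold. The replicates are biological replicates in the words of the study.

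A minority of p63 BSs carried Sox3 in the mutants. Of the 8120 p63 BSs, 1587 overlapped a mutant Sox3 site, which is 19.5% (95% Clopper-Pearson interval 18.7 to 20.4). A further 689 BSs (8.49%) had mutant Sox3 peaks without a shared site, and 5844 BSs (72.0%) had no peak of either mutant library. For p63 sites of any stage the share with a mutant Sox3 site was 43.8%, more than for those of 36 hpf. Intervals here and below cover counting error only, and neighbouring sites are not independent.

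In the other direction, p63 BSs made up a small part of the Sox3 landscape of the mutants. Of 48746 mutant Sox3 sites, 1585 (3.25%) lay at a p63 BS, 2393 (4.91%) lay on a p63 peak of 1 replicate alone and 44768 (91.8%) lay on no p63 peak. Of the 1587 BSs, 10 overlapped 2 or more mutant Sox3 sites. Overlapping Sox3 peaks had been merged into sites first, which limits this count. Among p63 regions found by replicate 1 alone, 24.6% (2177 of 8865) overlapped a mutant Sox3 site, and among those of replicate 2 alone 21.7% (299 of 1375) did. Reproducible p63 BSs were thus met by Sox3 no more often than p63 regions of a single replicate.

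Every pairing of single libraries showed an overlap of similar size. Peaks of the mutant Sox3 libraries overlapped 30.0% and 23.3% of the peaks of p63 replicate 1, and 25.5% and 20.7% of those of p63 replicate 2. Over chromosomes 1 to 25 the share of p63 BSs with a mutant Sox3 site ran from 11.7% on chromosome 12 to 23.7% on chromosome 11, with a median of 19.4%. On unplaced sequence it was higher, 44 of 123 BSs (35.8%).

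The overlap was then followed while the mutant Sox3 sites were moved along their chromosomes by fixed distances in both directions. It held within the width of a peak and was mostly gone at 1 kb. A shift of 0.2 kb left 1473 and 1509 overlapping BSs, a shift of 0.5 kb left 567 and 550, and a shift of 1 kb left 261 and 283. For scale, the median width of a mutant Sox3 site was 409 bp at p63 BSs and 347 bp away from p63, and that of a p63 BS was 311 bp with and 276 bp without mutant Sox3.

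Beyond the peak, the curve did not fall straight to its floor. Shifts of 2 kb left 264 and 265 BSs, shifts of 5 kb left 328 and 330, and shifts of 10 kb left 324 and 303. Shifts of 20 kb still left 300 and 299, and shifts of 50 kb left 284 and 269. The curve thus had a shallow trough at 1 to 2 kb, was highest past it at 5 to 10 kb and declined slowly from there. Over the 12 shifts of 100 to 5000 kb, 234 ± 16.8 BSs overlapped (mean and SD over shifts, range 200 to 262), or 2.89% of BSs, so that the unshifted count was 6.77-fold higher. WT Sox3 sites, which overlapped 1052 p63 BSs (13.0%), followed the same course with 112 ± 9.32 BSs over the same shifts and a ratio of 9.40. The shifted counts describe these lists and are not a test, and any region that many antibodies enrich would also lie above the floor.

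**Figure D1:**
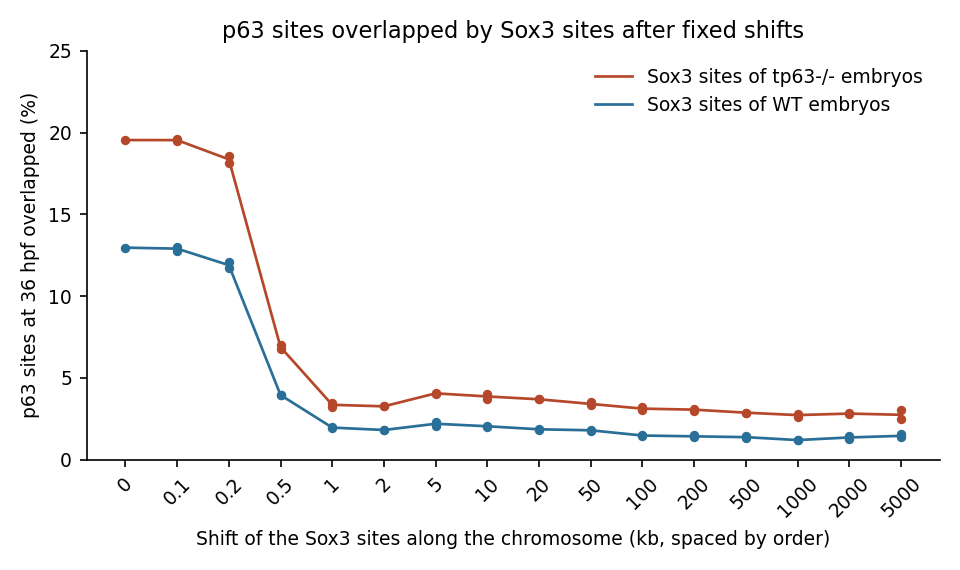
Share of the 8120 p63 BSs overlapped (y axis, percent) after shifting the Sox3 sites by a fixed distance (x axis, kb, spaced by order and not to scale), for Sox3 sites of *tp63*−/− and of WT embryos; each point is 1 direction of shift and lines join the means. The share for *tp63*−/− sites is 19.5% without a shift and 3.35% at 1 kb, stands at 4.05% at 5 kb and averages 2.89% from 100 kb on.

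For p63 BSs without a mutant Sox3 peak, the distance to the nearest mutant Sox3 site was measured. For the 5824 of these 5844 BSs that share a chromosome or scaffold with a mutant Sox3 site, the median distance to the nearest one, middle to middle, was 9.29 kb (quartiles 3.88 and 22.3 kb). Within 5 kb there was a mutant Sox3 site for 1839 BSs (31.6%), while 485 BSs (8.33%) had none within 50 kb. These distances are not set against those of other positions. Whether they differ from what the density of Sox3 sites alone would give was not tested.

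Sox3 peaks at p63 BSs ranked above other Sox3 peaks of the same mutant library. Ranks are percentiles of the caller's −log10 q within a list, with 100 the strongest peak. In *tp63*−/− replicate 1 the median percentile was 66.5 for 2137 peaks at p63 BSs and 48.8 for 76125 peaks away from any p63 peak. In *tp63*−/− replicate 2 it was 64.4 for 1731 peaks at p63 BSs and 49.3 for 55538 peaks away. The difference, at minus away, averaged 16.4 ± 1.81 percentile points (SD, n = 2 libraries).

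Peaks on p63 regions of a single replicate fell between these classes, with medians of 63.1 and 60.3 in the mutant libraries. Median fold enrichment was 7.96 at p63 BSs and 7.07 away in replicate 1, and 8.24 at p63 BSs and 7.66 away in replicate 2. Peaks at p63 BSs were also wider, with a median of 301 bp against 227 bp away in replicate 1 and 327 bp against 254 bp away in replicate 2. Width and −log10 q rise together in a peak list and a wide peak meets another peak more easily. With each peak replaced by 100 bp on either side of its summit, the difference in rank was 14.7 percentile points.

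In regions found in all 4 Sox3 libraries at 36 hpf this gap was under 1 point in the mutants. There the median percentile was 86.0 at p63 BSs and 85.3 away in *tp63*−/− replicate 1, and 80.7 at p63 BSs and 80.2 away in replicate 2. Fold enrichment was lower at p63 BSs, with medians of 11.19 against 11.98 away in replicate 1 and 10.28 against 11.23 away in replicate 2. In the WT lists the same regions ranked higher at p63 BSs. Median percentiles were 82.4 against 76.0 away in WT replicate 1 and 66.8 against 58.9 away in replicate 2. Median fold enrichment was not higher at p63 BSs in WT lists. It was 9.657 against 9.672 away in WT replicate 1 and 8.578 against 8.89 away in replicate 2.

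The share of Sox3 peaks at p63 BSs was nearly flat over the weaker part of each mutant list and climbed over the stronger part. In *tp63*−/− replicate 1 it was 1.68% in the lowest decile, 1.93% in decile 5 and 4.47% in the highest, and in replicate 2 it was 1.92%, 2.46% and 4.82%. Peaks of the highest decile thus lay at p63 BSs 2.67 and 2.51 times as often as those of the lowest. With the strongest 29082 peaks of each Sox3 list, the length of the shortest of them, the difference at minus away was 7.78 percentile points. With 9538 peaks from each list of both factors, which shortens the p63 lists as well, it was −0.709. Ranked by fold enrichment in place of −log10 q, it was 8.63 points.

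**Figure D2:**
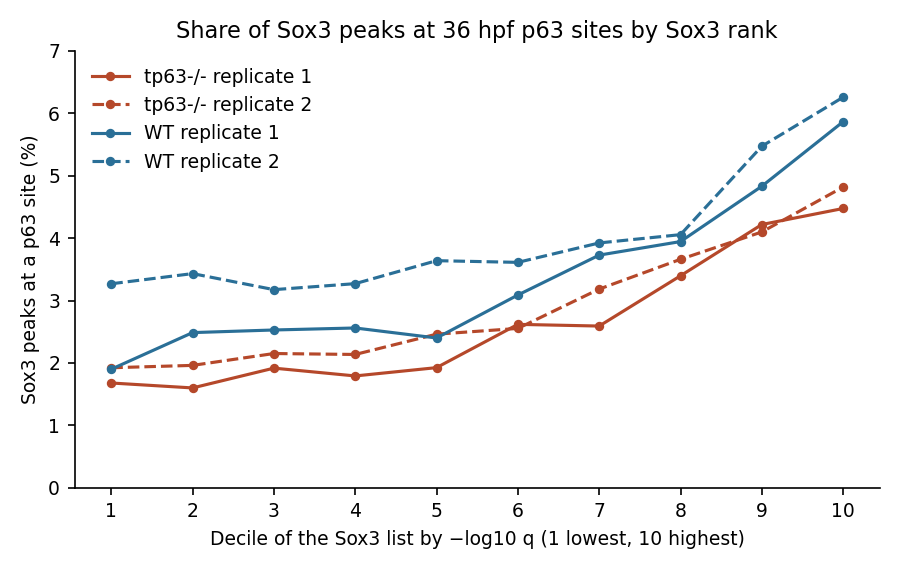
Share of Sox3 peaks at a p63 BS (y axis, percent) by decile of each Sox3 list, ordered by −log10 q (x axis, 10 the highest), for the 2 *tp63*−/− and the 2 WT libraries at 36 hpf. All 4 lines end above their start, at 4.47% and 4.82% in *tp63*−/− and 5.86% and 6.26% in WT libraries.

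WT Sox3 lists showed the same order, so the rank of Sox3 at p63 BSs was compared between genotypes. Median percentiles at p63 BSs were 66.5 and 64.4 in *tp63*−/− libraries and 65.1 and 59.1 in WT libraries. The difference at minus away was 16.4 ± 1.81 points in *tp63*−/− and 12.8 ± 4.37 points in WT libraries (SD, n = 2 each), and the genotypes overlapped (difference 3.59 points, two-sided exact permutation p = 0.667, where 0.333 is the smallest p that 2 against 2 libraries allow). Without WT replicate 2 the genotypes differed by 0.502 points, without WT replicate 1 by 6.68 and without *tp63*−/− replicate 1 by 2.31. With 29082 peaks taken from every Sox3 list the sign turned, to −3.23 points.

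Summits of p63 and of mutant Sox3 did not coincide as closely as summits of replicates did. The median distance between summits of overlapping peaks was 58, 61, 59 and 62 bp over the 4 pairs of a p63 and a mutant Sox3 library, a mean of 60.0 ± 1.83 bp (SD, n = 4 pairs that share libraries). The summits lay within 50 bp in 43.4% to 45.2% of 1977 to 5144 pairs of peaks and within 100 bp in 66.6% to 67.0%. Replicate peaks of 1 factor lay closer, with medians of 21 bp for p63, 29 bp for mutant Sox3 and 32 bp for WT Sox3.

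Over all pairs, the Sox3 summit lay about as far from the p63 summit as from the middle of the p63 peak. From the Sox3 summit to that middle the median was 58 to 61 bp, and in each pair of libraries more Sox3 summits lay nearer the middle (52.3% to 53.3%) than nearer the p63 summit (44.8% to 45.6%). Distances were shorter at the strongest p63 BSs. Above the upper quartile of BS peaks of p63 replicate 1 the medians were 51 and 61 bp with the 2 mutant libraries, against 70 and 69 bp below the lower quartile, although the upper peaks were wider (374 bp against 184 bp). For p63 replicate 2 the medians were 53 and 57 bp above the upper and 59 and 62 bp below the lower quartile. Between the lower quartile and the median of that list they were 70 and 74 bp, so distance did not fall steadily with p63 rank. Above the upper quartile the median to the middle was 66 and 69 bp for p63 replicate 1 and 55 and 58 bp for replicate 2. There the median distance to the p63 summit was the shorter in all 4 pairs of libraries, though only slightly for p63 replicate 2. How many Sox3 summits lay nearer the p63 summit was not counted by quartile.

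WT Sox3 summits lay 55 to 60 bp from p63 summits in the median (mean 57.2 ± 2.22 bp, SD, n = 4 pairs), and 68.9% to 70.6% lay within 100 bp. All 4 shares within 100 bp were lower with mutant Sox3 than with WT Sox3, and mutant Sox3 peaks were wider than WT ones in both replicates. With an overlap of 50% of both peaks required, the median distance of p63 and mutant Sox3 was 37.5 bp, so the distance depends on which pairs count as overlapping.

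**Figure D3:**
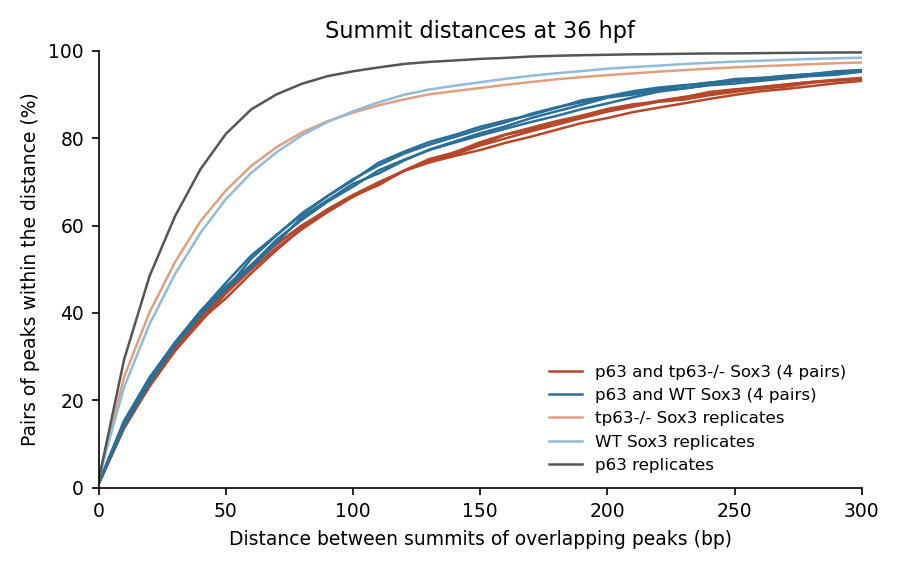
Cumulative share of overlapping peak pairs (y axis, percent) by the distance between their summits (x axis, bp) for p63 with *tp63*−/− Sox3, p63 with WT Sox3 and the replicates of each factor; each line is 1 pair of libraries. At 100 bp the p63 and *tp63*−/− Sox3 lines stand at 66.6% to 67.0%, below 85.9% for *tp63*−/− Sox3 replicates and 95.3% for p63 replicates.

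The strength of p63 in WT embryos hardly separated BSs with mutant Sox3 from BSs without it. In p63 replicate 1 the median percentile was 75.4 for 1589 peaks at BSs with a mutant Sox3 site and 74.9 for 5855 peaks at BSs without any mutant peak. In p63 replicate 2 it was 57.5 for 1564 peaks with and 56.1 for 5960 peaks without. The difference was 0.979 ± 0.610 percentile points (SD, n = 2 libraries), and its sign was not stable: it was −3.80 points when ranked by fold enrichment and −0.763 points without the regions that have a peak in all 12 libraries. BSs with 1 mutant library alone had medians of 75.5 and 62.0.

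By decile of p63 rank the share of BSs with mutant Sox3 moved by a few percentage points. Among BS peaks of p63 replicate 1, 23.0% of the weakest decile, 17.4% of decile 5 and 21.8% of the strongest decile had a mutant Sox3 site. For p63 replicate 2 these shares were 22.4%, 17.7% and 23.3%. The lowest and the highest decile had the highest shares in both lists. The deciles between did not follow a steady course, since those of replicate 2 held 21.8% in decile 7 and 15.9%, the lowest, in decile 8. BSs with mutant Sox3 were somewhat wider than BSs without it, with a median of 311 bp against 276 bp.

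At the strongest p63 BSs fewer Sox3 peaks were called in mutants than in WT embryos once the lists had the same length. The set was chosen after values had been seen, as the top 1% of BSs by mean p63 percentile (82 BSs). A Sox3 peak was called at 35 and 28 of them in *tp63*−/− libraries (42.7% and 34.1%), against 42 and 31 in WT libraries (51.2% and 37.8%), although the mutant lists were the longer ones. The median percentiles of these Sox3 peaks were 56.6 and 76.0 in *tp63*−/− and 66.1 and 52.5 in WT libraries. Their median fold enrichment was 8.40 and 9.33 in *tp63*−/− and 8.66 and 8.70 in WT libraries. A cut to 29082 peaks per Sox3 list drops the lower ranks of the longer lists and none of WT replicate 2. After this cut the counts were 16 and 18 in *tp63*−/− libraries (19.5% and 22.0%), against 32 and 31 in WT libraries (39.0% and 37.8%). The groups then did not overlap. Over all 8120 BSs they did not overlap either, at 13.9% and 13.4% in *tp63*−/− and 14.5% and 14.2% in WT libraries.

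The highest decile as a whole, 812 BSs, parted in the same direction and by less. At equal length 15.4% and 15.1% of it had a Sox3 peak in *tp63*−/− libraries, against 20.2% and 20.7% in WT libraries. As deposited, its contrast with decile 5 was 8.99 and 5.91 points in *tp63*−/− and 14.2 and 8.87 points in WT libraries. At equal length it was 2.21 and 1.23 points in *tp63*−/− and 7.88 and 8.87 points in WT libraries. The difference was −6.655 points (two-sided exact permutation p = 0.333, the smallest possible with 2 against 2). Decile 10 holds the top 1%, and equal length was added after the data had been seen, so no conclusion is drawn from this p.

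In decile 5 of p63 BSs the same lists of equal length gave 13.2% and 13.9% in *tp63*−/− libraries, against 12.3% and 11.8% in WT libraries. No other decile had both *tp63*−/− shares above both WT shares. Besides decile 10, both *tp63*−/− shares lay below both WT shares in deciles 2 and 9. In decile 2 they were 11.58% and 11.58% in *tp63*−/−, against 12.56% and 12.81% in WT libraries. In decile 9 they were 12.81% and 12.44% in *tp63*−/−, against 14.29% and 15.27% in WT libraries. In decile 6 the shares were 13.92% and 13.55% in *tp63*−/−, against 13.79% and 13.42% in WT libraries. The genotypes thus differ more in contrasts with decile 5 than with decile 6. The contrast of the top 1% with decile 5 was 6.33 and 8.03 points in *tp63*−/− and 26.7 and 26.0 points in WT libraries, a difference of −19.2 points (two-sided exact permutation p = 0.333, the smallest possible with 2 against 2). The top 1% was chosen after values had been seen, so no conclusion is drawn from this p. With BSs ranked by p63 replicate 1 alone, 17 and 19 of 82 BSs had a Sox3 peak in *tp63*−/− libraries and 33 and 32 in WT libraries. Without the BSs that have a peak in all 12 libraries, it was 10 and 12 of 80 BSs in *tp63*−/− libraries and 27 and 27 in WT libraries. These recounts use the same Sox3 lists and the same p63 lists, so they are not independent evidence for the difference. In the lists as deposited, 5 of the 82 BSs had Sox3 in a mutant library and in neither WT library, and 12 had it in a WT library and in neither mutant library, where over all BSs these counts were 721 and 264.

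**Figure D4:**
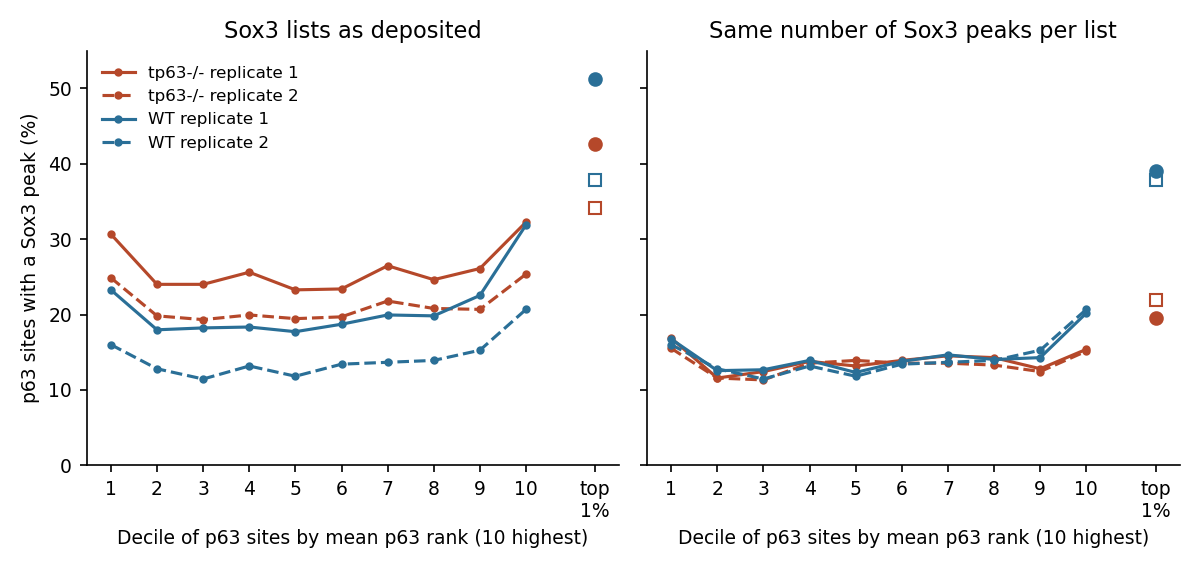
Share of p63 BSs with a Sox3 peak (y axis, percent) by decile of mean p63 rank and in the top 1% (x axis), for the *tp63*−/− and WT Sox3 libraries as deposited (left) and with 29082 peaks from each list (right). At equal length both *tp63*−/− lines lie below both WT lines in deciles 2, 9 and 10. In decile 10 they stand at 15.4% and 15.1% in *tp63*−/− and 20.2% and 20.7% in WT libraries. In the top 1% they lie further apart, at 19.5% and 22.0% in *tp63*−/− and 39.0% and 37.8% in WT libraries.

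Over all p63 BSs the genotypes were close once the lists had the same length. As deposited, a Sox3 peak was present at 26.1% and 21.2% of p63 BSs in *tp63*−/− libraries, against 20.9% and 14.2% in WT libraries, a difference of 6.08 percentage points (23.6% ± 3.44 against 17.5% ± 4.69, SD, n = 2 each; two-sided exact permutation p = 0.333, the smallest possible). With 29082 peaks per Sox3 list it was 13.9% and 13.4% in *tp63*−/− libraries, against 14.5% and 14.2% in WT libraries, a difference of −0.739 points. Seen from Sox3, 2.62% and 2.90% of the peaks of *tp63*−/− libraries and 3.33% and 4.01% of those of WT libraries lay at a p63 BS in the lists as deposited, and at equal length 3.85% and 3.71% in *tp63*−/− and 4.06% and 4.01% in WT libraries.

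Most p63 BSs with Sox3 in WT embryos also had it in the mutants. Of the 1052 BSs with a WT Sox3 site, 1001 (95.2%, interval 93.7 to 96.4) had a mutant Sox3 site, and these were 63.1% of the 1587 BSs with a mutant site. Of all 23459 WT Sox3 sites 96.3% (96.0 to 96.5) had a mutant Sox3 site, and of those away from p63 96.4% (96.1 to 96.6), so the share at p63 BSs was not above that of Sox3 sites in general. In the other direction, 64.5% (62.1 to 66.9) of the mutant Sox3 sites at p63 BSs and 44.4% (44.0 to 44.9) of those away from p63 had a WT Sox3 site. By library, 972 BSs had a Sox3 peak in all 4 libraries and 5580 in none. Both mutant and neither WT library had a peak at 240 BSs, and both WT and neither mutant library at 20 BSs.

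Sox3 ranks of these classes are given as a description. The classes are defined by which Sox3 lists called a peak, so differences in Sox3 rank between them are partly built in. Ranks of regions called in 1 genotype alone and away from p63 are not given here. At the 972 BSs of all 4 libraries the median Sox3 percentile was 86.0 and 80.7 in the mutant libraries, less than 1 point above that of regions of all 4 libraries away from p63. At the 240 BSs called in mutants alone it was 48.8 and 35.1, the middle of the first mutant list and the lower part of the second, and median p63 percentiles were 71.9 and 55.7. The 20 BSs called in WT alone held Sox3 peaks of low rank in the median, at percentiles of 16.4 and 25.1 in the WT lists, at strong p63 BSs with medians of 94.0 and 92.3.

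Sox3 regions at p63 BSs were read against all 102840 Sox3 regions merged over the 4 libraries at 36 hpf. Over all regions, 13.0% had a peak in both mutant libraries and neither WT library, and 0.255% in both WT libraries and neither mutant library. At p63 BSs, 222 of 2565 Sox3 regions (8.66%) were of the mutant kind and 20 (0.780%) of the WT kind. Regions found in all 4 libraries made up 40.2% at p63 BSs and 20.8% away from p63. With 29082 peaks per list, 35 regions at p63 BSs (2.22%) were of the mutant kind and 56 (3.55%) of the WT kind, where over all regions these shares were 5.45% and 2.65%.

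BSs with and without mutant Sox3 differed in where p63 had been earlier in WT embryos. Of the 1587 BSs with a mutant Sox3 site, 71.1% (68.8 to 73.4) were also p63 sites at 80% of epiboly, during gastrulation, against 42.5% (41.2 to 43.7) of the 5844 BSs without a mutant peak. For p63 sites at 24 hpf these shares were 63.3% with and 56.7% without. The classes thus lay further apart in their gastrula occupancy than in that of 24 hpf. The p63 lists of these stages differ in depth and length (24810 and 10303 sites). The part of this in the comparison, and in the split below, was not tested.

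BSs were then split by where p63 had been before into 4 classes and a remainder. Of 1396 BSs with no earlier p63 peak, 9.03% (7.57 to 10.7) had a mutant Sox3 site, and of 1089 BSs of 24 and 36 hpf with no gastrula peak, 11.2% (9.39 to 13.2). Of 3165 BSs of all 3 stages it was 25.7% (24.2 to 27.3). The highest share, 41.6% (36.2 to 47.3), belonged to 317 BSs present at 80% of epiboly and 36 hpf without a peak at 24 hpf. The other 2153 BSs, which had an earlier stage with a peak in 1 replicate only, had a mutant Sox3 site in 18.2% (16.6 to 19.9) of cases. Over all BSs it was 28.2% (26.8 to 29.6) of the 4002 with a gastrula site and 11.1% (10.2 to 12.1) of the 4118 without one.

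The order of the 4 classes was not the order of their p63 rank. Median p63 percentiles in replicates 1 and 2 were 59.3 and 38.3 for BSs with no earlier peak, 77.6 and 60.1 for BSs of 24 and 36 hpf, 61.1 and 43.6 for BSs of the gastrula and 36 hpf, and 84.4 and 72.0 for BSs of all 3 stages. In the split of all BSs, those with a gastrula site had higher p63 percentiles (81.05 and 66.69) than those without one (69.03 and 48.34). They were also wider, with medians of 304 bp against 267 bp. The part of p63 rank and width in the shares was not tested. In each of the 4 Sox3 libraries the gastrula classes had more Sox3 than both classes without a gastrula peak. For BSs of the gastrula and 36 hpf the shares were 48.9% and 42.9% in *tp63*−/− libraries, against 37.9% and 25.2% in WT libraries. For BSs with no earlier peak they were 15.5% and 9.81% in *tp63*−/− libraries, against 11.2% and 5.37% in WT libraries.

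**Figure D5:**
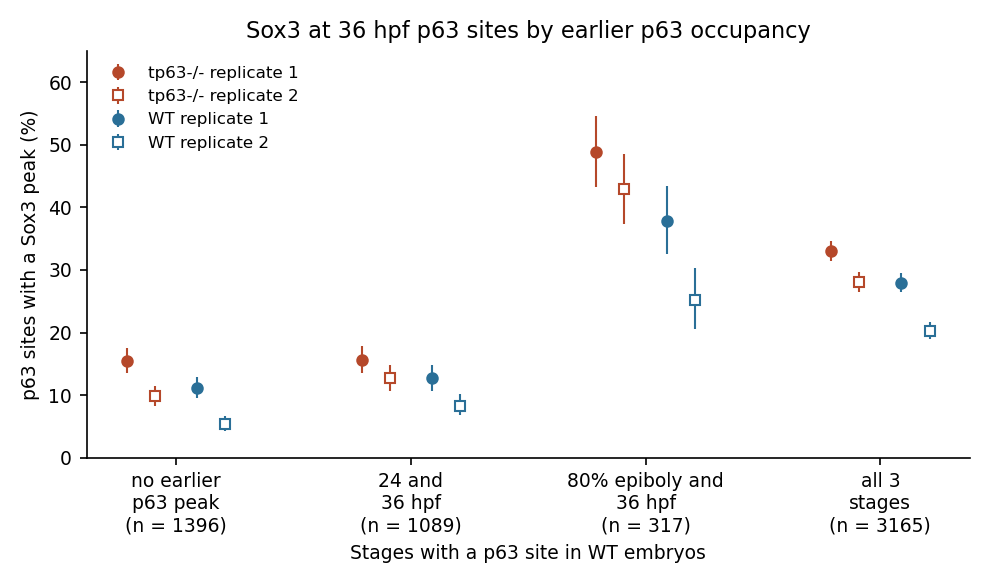
Share of 36 hpf p63 BSs with a Sox3 peak (y axis, percent) by the earlier stages with a p63 site (x axis), for each *tp63*−/− and WT Sox3 library; bars are 95% Clopper-Pearson intervals. In *tp63*−/− libraries the 2 classes with a gastrula site have shares of 28.1% to 48.9% and the 2 without a gastrula peak 9.81% to 15.6%; the 2153 BSs with an earlier peak in 1 replicate only, at 24.6% and 19.6%, are not drawn.

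The same gradient ran over the p63 sites of each stage. A mutant Sox3 site was present at 49.7% of 24810 p63 sites of 80% of epiboly, 36.8% of 10303 sites of 24 hpf and 19.5% of 8120 BSs of 36 hpf, and WT Sox3 sites at 29.4%, 26.0% and 13.0% of them. Gastrula sites that no later p63 library called had a mutant Sox3 site in 47.8% of 11219 cases. The p63 lists of the 3 stages differ in depth, and its part in this order was not tested.

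At BSs with mutant Sox3, Sox3 itself had often been there before. The single Sox3 list of WT embryos at 24 hpf had a peak at 88.5% of BSs with a mutant Sox3 site and at 15.6% of BSs without a mutant peak, and the single list of 80% of epiboly at 17.8% with and 0.359% without. Over all p63 BSs these shares were 33.6% at 24 hpf and 3.98% at 80% of epiboly. Of the 240 BSs called in both mutant and neither WT library at 36 hpf, 76.2% had a WT Sox3 peak at 24 hpf. The same share was not computed for mutant Sox3 sites away from p63. Whether these values are particular to p63 BSs was therefore not tested.

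Regions are named by rank, with 1-based coordinates on GRCz10 (danRer10). Genes near them and their sequences are not analysed here. The 5 p63 BSs with a mutant Sox3 site that ranked highest over the 4 lists all had a peak in every one of the 12 libraries. At chr20 4437668 to 4438041 the fold enrichment was 35.3 and 36.5 for p63, 27.9 and 31.6 for mutant Sox3 and 32.4 and 35.1 for WT Sox3. At chr4 57548184 to 57548611 it was 26.7 and 28.1 for p63, 31.4 and 29.4 for mutant Sox3 and 29.3 and 27.2 for WT Sox3. At chr17 53292600 to 53292870 it was 30.4 and 29.7 for p63, 33.1 and 36.5 for mutant Sox3 and 33.9 and 30.6 for WT Sox3. At these 3 regions p63 in WT embryos and Sox3 in both genotypes gave similar values.

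At chr5 826085 to 826664 the fold enrichment was 21.5 and 21.8 for p63, 19.9 and 20.2 for mutant Sox3 and 19.7 and 19.0 for WT Sox3. At chr24 38404520 to 38404949 it was 25.1 and 22.8 for p63, 23.5 and 25.6 for mutant Sox3 and 26.4 and 27.0 for WT Sox3. Of the 8120 p63 BSs, 189 (2.33%) had a peak in all 12 libraries, and without such regions 17.4% of p63 BSs had a mutant Sox3 site and the difference in Sox3 rank was 11.3 percentile points. The leading regions are thus of a kind that every library holds.

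The 5 strongest p63 BSs without any mutant Sox3 peak had p63 in the top 1% of both lists. At chr25 712600 to 713066 p63 fold enrichment was 27.0 and 35.5, and WT Sox3 replicate 1 had a peak of 7.07. At chr9 37271772 to 37272268 it was 26.1 and 33.6, with a WT Sox3 peak of 5.93 in replicate 1. At chr15 8899391 to 8899915 it was 23.8 and 30.7, with WT Sox3 peaks of 8.47 and 6.58. These WT Sox3 peaks lay between percentiles 16.4 and 62.3 of their lists. The absence of mutant peaks follows from how these 5 BSs were selected. Over all 8120 BSs, 264 (3.25%) had a peak in a WT library and in neither mutant library.

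At chr8 33217913 to 33218449 p63 fold enrichment was 24.0 and 31.8, with a WT Sox3 peak of 8.03 in replicate 1. At chr21 30733421 to 30733942 it was 23.0 and 32.5, with no Sox3 peak at 36 hpf. All but the first of these 5 BSs were p63 sites at 80% of epiboly, and all 5 at 24 hpf.

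Among the 20 BSs with Sox3 in both WT and neither mutant library, the 3 with the strongest p63 were the chr15 BS above and 2 more. At chr4 18931313 to 18931844 p63 fold enrichment was 18.8 and 24.5 and WT Sox3 had 8.70 and 8.64. At chr9 14480699 to 14481373 p63 had 21.6 and 30.0 and WT Sox3 7.43 and 8.70. All 3 were p63 sites at all 3 stages and had Sox3 at 24 hpf.

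The BSs with a mutant Sox3 site and no WT Sox3 peak at 36 hpf numbered 253, and the leading 5 with a peak of all 4 lists were less extreme. At chr11 23514194 to 23514454 fold enrichment was 17.4 and 13.8 for p63 and 11.8 and 11.9 for mutant Sox3, with summits 338 to 548 bp apart. At chr4 76556177 to 76556814 it was 15.2 and 21.8 for p63 and 9.80 and 12.3 for mutant Sox3, with summits 368 to 385 bp apart. At chr18 37186361 to 37186821 it was 11.1 and 17.4 for p63 and 12.4 and 11.4 for mutant Sox3, with summits 509 to 712 bp apart. At the first and the third of these, the distance exceeded the width of the BS (261 and 461 bp), so the Sox3 summit lay outside it. WT Sox3 peaks were counted only where they overlapped the BS, so a WT peak beside it would not be counted.

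At chr20 32429753 to 32430140 fold enrichment was 12.3 and 17.4 for p63 and 8.62 and 4.51 for mutant Sox3, with summits 18 to 510 bp apart. The largest of these distances exceeded the width of the BS (388 bp). At chr4 139096 to 139791 it was 14.0 and 16.5 for p63 and 6.41 and 6.21 for mutant Sox3, with summits 511 to 557 bp apart. Over all 240 BSs with peaks of both mutant and neither WT library, the median summit distance was 64.5 to 83 bp over the 4 pairs of libraries, against 54 to 59 bp at the 972 BSs of all 4 Sox3 libraries.

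The strongest mutant Sox3 sites away from p63 were shared with WT embryos. At chr9 53649192 to 53649841 Sox3 fold enrichment was 21.4 and 20.8 in *tp63*−/− and 23.5 and 22.5 in WT libraries. At chr11 43570527 to 43571089 it was 27.0 and 24.1 in *tp63*−/− and 28.1 and 28.4 in WT libraries. At chr16 1536985 to 1537350 it was 34.4 and 30.0 in *tp63*−/− and 31.3 and 32.9 in WT libraries. The second and the third of these had been p63 sites at 80% of epiboly and at 24 hpf, with no p63 peak at 36 hpf. Each of these 2 had a peak in 10 of the 12 libraries, and the first had a peak in 6.

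At chr20 21307991 to 21308595 it was 22.5 and 19.6 in *tp63*−/− and 25.3 and 23.3 in WT libraries. At chr7 45760234 to 45760756 it was 22.2 and 20.1 in *tp63*−/− and 29.1 and 28.0 in WT libraries, and this region too was a p63 site at both earlier stages. The chr7 region had a peak in 10 of the 12 libraries and the chr20 region in 6. Regions with a peak in 10 libraries are thus close to those that every library holds. All 5 had a Sox3 peak at 24 hpf.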

How the data were processed

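Per the labels and the study's methods, the authors aligned paired reads with Bowtie to GRCz10 (danRer10) and called peaks per library with MACS2 at a false discovery rate of 0.001 and a genome size of 1.5 Gb, with no control stated. Versions are not given in the sources used here. The deposited lists hold a score, a fold enrichment (a ratio of summit pileup to local background), −log10 p and −log10 q, and a summit offset, none of them scaled between libraries. The deposited −log10 q was therefore used as a rank within a list. Antibody, stage and genotype in the labels gave the groups.

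Sites were merged regions with a peak in both replicates and an overlap of at least 1 bp. Sox3 sites were shifted circularly by fixed distances within the span of each chromosome's peaks. Sox3 libraries were compared 2 against 2 by exact permutation. Tag numbers were recovered by inverting the caller's Poisson formula, and for p63 replicate 2 the value is an upper bound. Intervals are 95% Clopper-Pearson intervals. The scripts used Python 3.11.15, numpy 2.4.6, pandas 2.3.3 and scipy 1.17.1, and were tested on simulated lists. Named regions lie on chromosomes 1 to 25 and lead their class by mean percentile over the lists that define it, 5 per class and 3 for BSs with Sox3 in WT alone. Alternatives covered the overlap, the thresholds (−log10 q of 10, fold enrichment of 5), the replicates required, list length, ranking measure, peak width, shared regions, chromosomes, each left-out library and a replicate block. Equal length of the Sox3 lists alone was added after seeing the data. The members, classes and rules were chosen with earlier results of these data known. Replicate numbers did not pair the Sox3 libraries (correlation of their deviations 0.0253 over 102840 regions).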

Additional observations from a re-analysis of the deposited data

How the results depend on the processing

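The share of p63 BSs with a mutant Sox3 site, 19.5%, was 13.2% with an overlap of 50% of both intervals, 15.8% at −log10 q of at least 10, 32.0% with a peak in either replicate, 4.755% with 9538 peaks from each of the 6 lists and 12.25% with 29082 peaks from each of the 4 Sox3 lists; left-out libraries gave 19.5% to 26.05%. The Sox3 rank difference of 16.4 points was 14.6 at −log10 q of at least 10, 14.1 with either replicate, −0.709 with 9538 peaks per list, 8.63 by fold enrichment, 11.3 without regions of all 12 libraries and 7.78 with equal Sox3 lists, and 14.4 to 17.7 over left-out libraries. The median summit distance was 37.5 bp with the overlap of 50% and 58.5 to 61.5 bp over left-out libraries. The p63 rank difference of 0.979 points was −4.38 with either replicate, 8.555 with 9538 peaks per list, −3.80 by fold enrichment and −0.763 without regions of all 12 libraries. Over left-out libraries it was −7.77 to 1.37, with −7.77 without p63 replicate 2 and −0.959 without p63 replicate 1, where every peak of the remaining list counts as a site. The cause of these shifts was not tested.

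The difference between mutant and WT libraries in the share of p63 BSs with Sox3, 6.08 points, turned to −0.985 with 9538 peaks per list and to −0.739 with equal Sox3 lists. It was 2.765 to 9.39 over left-out libraries, lowest without WT replicate 2. The difference in rank contrast, 3.59 points, turned to −3.99 and −3.23 with these lists and was 0.502 to 6.68 over left-out libraries. As a replicate block, with differences taken within pairs of the same number, the values stayed at 6.08 and 3.59 points (exact sign-flip permutation p = 0.5 for both, the smallest possible with 2 pairs). p63 replicate 2 and WT Sox3 replicate 2 were the libraries of fewest recovered tags at 36 hpf of their factor. The part of depth in the absence of peaks was not tested.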
